A study of Homo sapiens with 32 samples.

Results

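The ZNF genes outside chromosome 19 are the numbered zinc finger genes, written ZNF and a number, that lie on any other autosome. They were taken by symbol from the protein-coding RefSeq rows (NM_) that had a decay rate in both cell lines, and ZNF395 was left out. The rule gave 128 genes with 145 transcripts, of 10623 genes measured. Symbols with a letter after the number, such as ZNF33A, were outside the rule. The labelled identity of the genes was checked on the sequence: of 120 members with a matched GENCODE transcript, 112 held at least 1 match to the C2H2 finger pattern in the coding frame.

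RNA decay was followed in MDA-LM2, a derivative of MDA-MB-231 selected for lung metastasis, and in MDA-MB-231, the established human breast cancer line it came from. Both lines were grown in the same medium, given 4-thiouridine (4sU), a uridine analogue that enters newly made RNA, for 2 h, and moved to medium with excess uridine. Labelled RNA was then recovered at 0, 2, 4 and 7 h, in 16 libraries per line, and the deposited tables hold, for every transcript, a rate of decay in each of the 4 replicate series of a line. The comparison asks which transcripts differ in stability between the lines, and each line is a single population, so a difference describes these populations. A rate is also an average over the cells of a culture, and a change in a few cells and a smaller change in all of them cannot be told apart.

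C2H2 zinc finger proteins form the largest family of human transcription factors. Each finger folds around a zinc ion held by a pair of cysteines and a pair of histidines, and fingers in a row read DNA. Many carry a KRAB domain, which brings in the co-repressor TRIM28 and the histone methyltransferase SETDB1 to silence chromatin, above all at transposable elements. The chromosome 19 genes are mostly tandem KRAB duplicates, while those elsewhere are a more mixed group with old single-copy regulators and proteins that bind RNA or ribosomes. Messages of transcription factors are often short-lived.

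The shared fingers are shown for the members that the line comparison turns on. The sequences below are the coding bases of the first finger with 2 residues between its cysteines, 5′ to 3′ on the coding strand of the matched GENCODE v29 transcript (GRCh38), for the 6 members whose rates passed the test between the lines with every rate in the usual range. Capitals mark the codons of the paired cysteines and histidines.
ZNF343: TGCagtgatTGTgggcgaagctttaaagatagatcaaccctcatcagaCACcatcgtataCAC
ZNF184: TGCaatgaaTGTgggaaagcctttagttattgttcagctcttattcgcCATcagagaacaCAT
ZNF827: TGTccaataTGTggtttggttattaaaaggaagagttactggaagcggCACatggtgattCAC
ZNF217: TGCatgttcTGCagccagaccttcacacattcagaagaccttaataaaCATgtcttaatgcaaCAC
ZNF684: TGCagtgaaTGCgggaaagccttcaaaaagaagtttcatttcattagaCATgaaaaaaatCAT
ZNF593: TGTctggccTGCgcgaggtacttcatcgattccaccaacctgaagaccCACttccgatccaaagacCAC
These genes lie on chromosome 20 (ZNF343 and ZNF217), 6 (ZNF184), 4 (ZNF827) and 1 (ZNF684 and ZNF593). The number of finger matches in the transcript was 19 for ZNF184, 12 for ZNF343, 9 for ZNF827, 8 for ZNF217, 8 for ZNF684 and 1 for ZNF593.

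A deposited rate is positive where labelled RNA was lost with time. Its log base is not given in the sources used here. The rates are therefore kept in the deposited unit and none is turned into a half-life. Rates above 8 were found for 2 to 4 of 128 members per series of MDA-LM2 and for 15 to 17 per series of MDA-MB-231. Over all genes they made up 0.866% to 1.36% per series of MDA-LM2 and 7.62% to 8.51% per series of MDA-MB-231, so the contrast runs through the whole table. A gene with all 8 rates within 1 of 0 is called in range here (7126 of 10623 genes and 77 of 128 members). Rates of genes with several transcripts are medians over their NM_ rows (112 members had 1 row, 15 had 2 and 1 had 3). Read depth is unknown, so no interval that needs it is given. The tables hold rates and not levels, so cell identity could be checked only by which genes had a rate. Of the mesenchymal markers 6 of 7 had one, and of the markers of lung metastasis derivatives 4 of 9. Of the luminal markers 2 of 5 had one, and of the epithelial markers 1 of 2. Of the immune markers 0 of 3 had one, of the endothelial markers 0 of 2 and of the fibroblast markers 0 of 2.

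The members decayed faster than most genes in both lines. In MDA-LM2 their median rate was 0.273 ± 0.0101, against 0.164 ± 0.0107 over all genes (SD of the 4 series medians). In MDA-MB-231 it was 0.276 ± 0.0224, against 0.188 ± 0.0155 over all genes. The member median stood above the all-gene median in each of the 8 series, by 0.101 to 0.114 in MDA-LM2, and by 0.0722 to 0.0959 in MDA-MB-231. Of 128 members, 100 to 117 lay above the all-gene median of the same series in MDA-LM2, against 83 to 92 in MDA-MB-231. In range, the member median of MDA-LM2 was 0.26 ± 0.00667, against 0.151 ± 0.0115 for all genes, and 69 of 77 members had a mean above the median of gene means (0.153) and 49 above its upper quartile (0.236). That of MDA-MB-231 was 0.24 ± 0.0353, against 0.159 ± 0.0154, with 60 of 77 members above the median of gene means (0.164) and 42 above its upper quartile (0.236). Without the limit on range, 70 of 128 members had a mean above the upper quartile of gene means in MDA-LM2 (0.272). In MDA-MB-231 only 39 of 128 did (upper quartile 0.811). These values are descriptions with no test, and genes are not independent replicates.

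**Figure D1:**
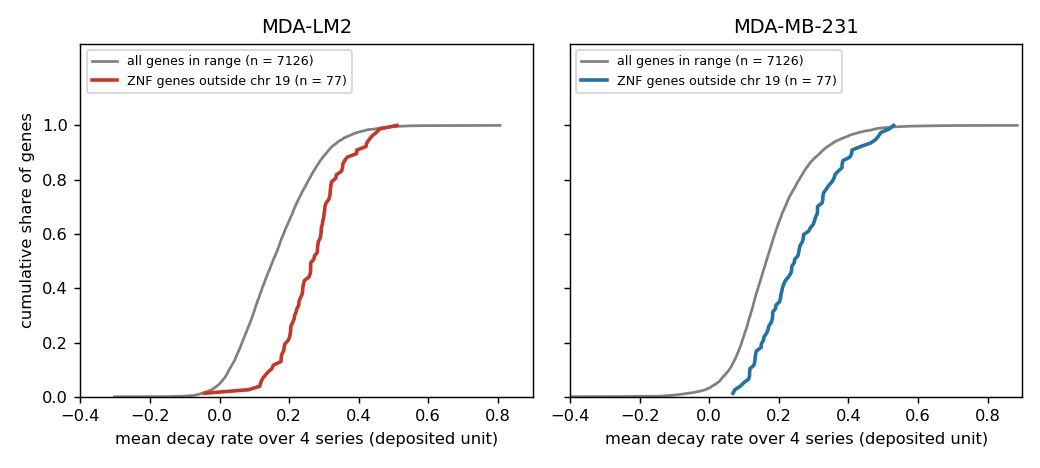
Cumulative share of genes (y) by mean decay rate over 4 series in the deposited unit (x), for MDA-LM2 at left and MDA-MB-231 at right, with in-range members in colour and all in-range genes in grey. The member curve lies to the right of the grey curve over most of the range in both lines, with medians of 0.26 for members and 0.151 for all genes in MDA-LM2, and of 0.24 for members and 0.159 for all genes in MDA-MB-231.

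The fast pace was shared by other zinc finger families. In range, chromosome 19 ZNF genes had medians of 0.28 ± 0.0131 in MDA-LM2, against 0.252 ± 0.0472 in MDA-MB-231 (91 genes). ZSCAN and ZKSCAN genes, whose proteins pair fingers with a SCAN dimerisation domain, had 0.28 ± 0.0342 in MDA-LM2, against 0.263 ± 0.0379 in MDA-MB-231 (10 genes). ZBTB genes, with a BTB domain in place of KRAB, had 0.257 ± 0.0193 in MDA-LM2, against 0.207 ± 0.0343 in MDA-MB-231 (17 genes). ZFP genes had 0.282 ± 0.0526 in MDA-LM2, against 0.279 ± 0.0303 in MDA-MB-231 (8 genes). KLF and SP genes, with 4 in range, had 0.32 ± 0.0266 in MDA-LM2, against 0.198 ± 0.115 in MDA-MB-231. Messages of the listed co-repressor genes, which also hold other silencing genes such as UHRF1 and MORC2, decayed more slowly on the whole. Of 30 listed genes 26 were measured, and the 24 in range had medians of 0.144 ± 0.0283 in MDA-LM2, against 0.143 ± 0.0271 in MDA-MB-231, near those of all genes in range. The differences between these families were not tested.

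**Figure D2:**
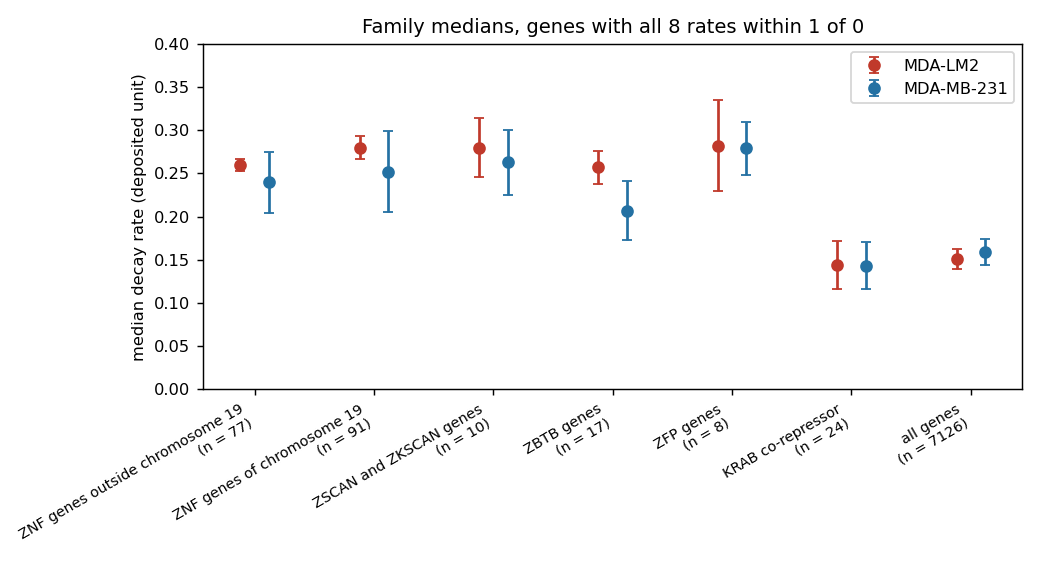
Median decay rate (y, deposited unit) of gene families among genes in range (x, with the number of genes), MDA-LM2 at left of each pair and MDA-MB-231 at right; points are means of the 4 series medians and bars their SD. The zinc finger families plotted, which leave out the 4 KLF and SP genes, lie between 0.207 and 0.282, above the co-repressor genes (0.144 in MDA-LM2, 0.143 in MDA-MB-231) and all genes (0.151 in MDA-LM2, 0.159 in MDA-MB-231).

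The fastest members in range, by the mean over both lines, were ZNF687, ZNF367, ZNF622, ZNF140, ZNF202, ZNF184, ZNF263 and ZNF141. ZNF687, which acts with ZMYND8 at chromatin, had rates of 0.398, 0.406, 0.402 and 0.515 in MDA-LM2, and of 0.566, 0.482, 0.384 and 0.687 in MDA-MB-231 (replicates 1 to 4 here and below). ZNF367 had 0.411, 0.427, 0.487 and 0.516 in MDA-LM2, against 0.432, 0.316, 0.44 and 0.349 in MDA-MB-231. The lines overlapped for both genes. ZNF622, known from its yeast relative as a factor of large ribosomal subunit maturation, had 0.423 ± 0.0557 in MDA-LM2, against 0.409 ± 0.225 in MDA-MB-231 (SD, n = 4). ZNF202, a SCAN domain repressor, had the highest in-range mean of MDA-LM2, at 0.51 ± 0.108, against 0.259 ± 0.216 in MDA-MB-231, and its MDA-MB-231 values split by replicate, at 0.0753 and 0.0707 in replicates 1 and 3 and 0.472 and 0.417 in replicates 2 and 4. The others of the 8 had line means between 0.239 (ZNF141 in MDA-LM2) and 0.518 (ZNF184 in MDA-MB-231).

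The slowest members in range were ZNF12, ZNF117, ZNF106, ZNF512, ZNF511, ZNF124, ZNF704 and ZNF76. ZNF106, an RNA-binding protein of nuclear speckles, had 0.115, 0.131, 0.115 and 0.13 in MDA-LM2, against 0.123, 0.186, 0.115 and 0.198 in MDA-MB-231. ZNF511 had 0.119 ± 0.0114 in MDA-LM2, against 0.169 ± 0.0599 in MDA-MB-231, and ZNF124 had 0.13 ± 0.0292 in MDA-LM2, against 0.157 ± 0.0269 in MDA-MB-231. ZNF12 had -0.86 in replicate 2 of MDA-LM2 beside 0.201 to 0.269 in the other 3 and 0.268 ± 0.127 in MDA-MB-231. The mean rates of all in-range members ran from -0.0422 to 0.51 in MDA-LM2, and from 0.0683 to 0.53 in MDA-MB-231. Neighbours in that order mostly lie closer than the spread of a gene, whose median SD between series over these members was 0.0438 in MDA-LM2, against 0.0925 in MDA-MB-231.

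Between the lines, more members were called slower than faster in MDA-LM2. A limma fit on all 10623 genes (quoted throughout as limma with Benjamini-Hochberg adjustment) called 8 members slower in MDA-LM2 at an adjusted p under 0.05 (6.25%), against 6.7% of all genes. It called 4 faster (3.12%), against 1.99% of all genes. Both directions together made up 9.38% of members and 8.69% of all genes. The member shares are near the background, so the counts are not a result about these genes. In range, 2 of 77 members were called slower (2.6%) and 4 faster (5.19%), against 6.22% and 2.9% of all genes in range. Of 128 members 77 had a lower mean in MDA-LM2 (60.2%), against 67% of all genes, and the median of the differences (rate of MDA-LM2 minus that of MDA-MB-231) was -0.0298 for members and -0.0534 for all genes. In range, 36 of 77 members had a lower mean in MDA-LM2 (46.8%), against 58.1% of all genes in range, and the median difference was 0.0136, against -0.0174. The sign of the member median thus turned when members with a rate beyond 1 were left out.

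The 4 series of a line were not independent, and single calls depend on how that is treated. Replicates 1 and 3 share the second number of their label, as do replicates 2 and 4. Across all genes in range the rates of such pairs correlated at a Spearman rho of 0.886 and 0.916 in MDA-LM2, where other pairs reached at most 0.782, and of 0.644 and 0.787 in MDA-MB-231, where they reached at most 0.43. With that correlation in the limma fit, 6 members were called slower and 1 faster, against 3.13% and 0.311% of all genes (3.45% in both directions). Leaving out 1 series also moved the counts. Without replicate 2 of MDA-MB-231, 13 members were called slower, with ZNF214, ZNF397, ZNF598, ZNF619 and ZNF721 gained, and 9.26% of all genes were called slower (2.57% faster) in the same fit. Of the 4 members called faster, 1 kept the call without replicate 1, 2 or 3 of MDA-LM2 or replicate 1 or 3 of MDA-MB-231, 2 without replicate 4 of MDA-LM2 or replicate 2 of MDA-MB-231, and 3 without replicate 4 of MDA-MB-231. Faster calls were gained for ZNF239 without replicate 2 of MDA-LM2, for ZNF638 without replicate 2 of MDA-MB-231, and for ZNF335 and ZNF532 without replicate 3 of MDA-MB-231.

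Among members with all rates in range, ZNF343 and ZNF184 decayed more slowly in MDA-LM2. ZNF343, a zinc finger gene of chromosome 20 with KRAB-like letters in its coding frame, had 0.219, 0.131, 0.174 and 0.0778 in MDA-LM2, against 0.421, 0.418, 0.393 and 0.385 in MDA-MB-231. The 4 values of MDA-MB-231 lie close together and all exceed those of MDA-LM2. The difference was -0.254 ± 0.0336 (SE, limma adjusted p = 0.00486, and 0.0198 with correlated series). It stayed past the threshold in all 8 fits that left out 1 series, and just missed it with the replicate number as a block (limma adjusted p = 0.0502). ZNF184, with 19 fingers, had 0.207, 0.262, 0.323 and 0.184 in MDA-LM2, against 0.497, 0.46, 0.601 and 0.512 in MDA-MB-231. Its lines do not overlap either, with a difference of -0.274 ± 0.0452 (adjusted p by limma = 0.0128). It missed the threshold with correlated series (limma adjusted p = 0.09), with the replicate number as a block (0.0619) and without replicate 1 of MDA-LM2 (0.0519).

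ZNF827, ZNF217, ZNF684 and ZNF593 decayed faster in MDA-LM2. ZNF827, which brings the NuRD remodelling complex to telomeres in cells that lengthen them by recombination, had 0.269, 0.292, 0.32 and 0.276 in MDA-LM2, against 0.147, 0.15, 0.128 and 0.173 in MDA-MB-231. Its groups were tight and apart, at 0.14 ± 0.0198 (SE; limma adjusted p = 0.00671, and 0.0442 with correlated series). The call held in all 8 fits that left out 1 series, but not with the replicate number as a block (limma adjusted p = 0.102). ZNF217, a co-repressor partner amplified in many breast cancers, had 0.52, 0.402, 0.482 and 0.399 in MDA-LM2, against 0.149, 0.136, 0.138 and 0.338 in MDA-MB-231. Replicate 4 of MDA-MB-231 stood apart from the other 3, yet below every MDA-LM2 value. The difference was 0.26 ± 0.0565 (adjusted p by limma = 0.0356, and 0.164 with correlated series). Without replicate 4 of MDA-MB-231 its adjusted p was 0.00565, while leaving out any other single series gave 0.0605 to 0.105.

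ZNF684, a KRAB-like member of chromosome 1, had 0.546, 0.37, 0.554 and 0.283 in MDA-LM2, against 0.014, 0.027, 0.0125 and 0.24 in MDA-MB-231. Its MDA-LM2 values were higher in replicates 1 and 3 than in 2 and 4, and the lines did not overlap. The difference was 0.365 ± 0.0819 (adjusted p by limma = 0.0394, and 0.131 with correlated series), past the threshold without replicate 4 of MDA-LM2 (0.0407) or of MDA-MB-231 (0.0237) but not without any other series (0.0674 to 0.11). ZNF593, whose yeast relative acts in export of the large ribosomal subunit, had 0.417, 0.282, 0.422 and 0.317 in MDA-LM2, against 0.188, -0.0144, 0.127 and 0.163 in MDA-MB-231. The difference was 0.244 ± 0.0552 (adjusted p by limma = 0.0404, and 0.17 with correlated series), and it stayed past the threshold only without replicate 2 of MDA-MB-231 (0.038), with 0.05 to 0.116 for the other 7. With the replicate number as a block, the limma adjusted p was 0.163 for ZNF217, 0.185 for ZNF684 and 0.0707 for ZNF593.

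**Figure D3:**
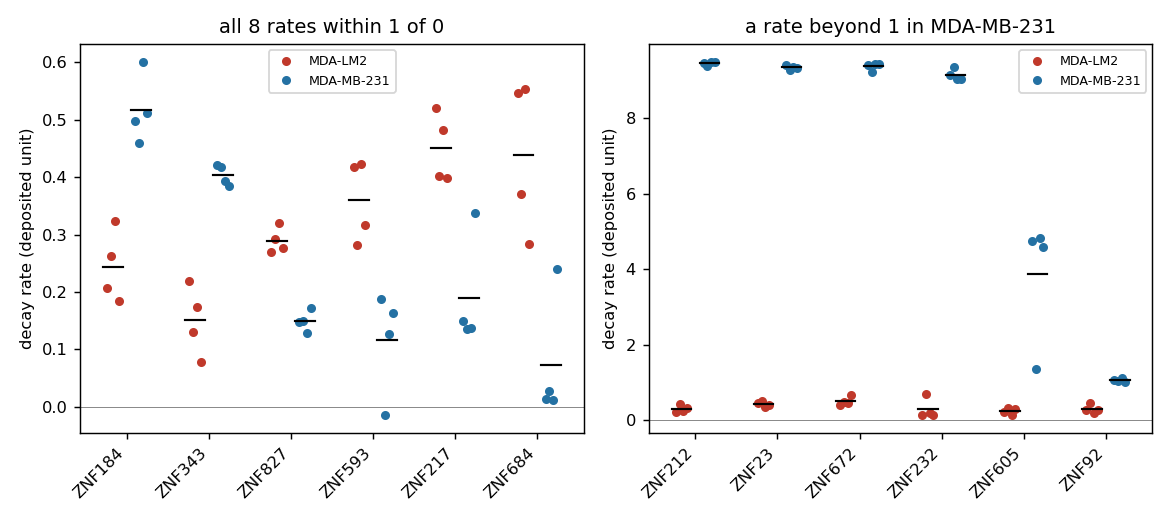
Decay rate (y, deposited unit) of the 12 members past a limma adjusted p of 0.05 (x), with all rates within 1 of 0 at left and a rate beyond 1 at right; MDA-LM2 points stand left of MDA-MB-231 points, in the order of replicates 1 to 4, and bars are means. No gene has overlapping lines, and the right panel has 4 genes whose MDA-MB-231 rates all lie between 9.03 and 9.5.

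The other 6 members called slower in MDA-LM2 had rates beyond 1 in every MDA-MB-231 series. ZNF212 had 0.221, 0.425, 0.236 and 0.323 in MDA-LM2, against 9.47, 9.38, 9.5 and 9.48 in MDA-MB-231. ZNF23 had 0.454, 0.506, 0.341 and 0.409 in MDA-LM2, against 9.42, 9.28, 9.37 and 9.33 in MDA-MB-231. ZNF672 had 0.4, 0.488, 0.443 and 0.671 in MDA-LM2, against 9.4, 9.22, 9.45 and 9.43 in MDA-MB-231. All 3 stayed within 1 of 0 in every series of MDA-LM2. ZNF232, a SCAN domain gene, had 0.144, 0.675, 0.18 and 0.127 in MDA-LM2, against 9.15, 9.35, 9.05 and 9.03 in MDA-MB-231. The limma adjusted p was 5.2e-05 for ZNF212, ZNF23 and ZNF672 and 7.28e-05 for ZNF232, and all 4 kept the call with correlated series and in each fit that left out 1 series. Averaging the series that share a second number, which leaves 2 values per line, left none of the 12 members past the threshold. How the authors treated time points without reads is not given in the sources used here, and the size of these differences cannot be read as a ratio of stabilities.

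ZNF92 and ZNF605 passed on values that mix 2 transcripts each. ZNF92 had a gene rate of 0.29 ± 0.116 in MDA-LM2, against 1.05 ± 0.0398 in MDA-MB-231 (adjusted p by limma = 0.00065). One of its transcripts averaged 0.249 in MDA-LM2, against 2.06 in MDA-MB-231, and the other 0.332 in MDA-LM2, against 0.0488 in MDA-MB-231, so the difference between the lines had opposite signs in the 2 transcripts. ZNF605 had 0.233 ± 0.0783 in MDA-LM2, against 3.88 ± 1.68 in MDA-MB-231 (adjusted p by limma = 0.0471, and 0.21 with correlated series). In MDA-MB-231 its first transcript had 0.0528, 2.65, 0.197 and 9.21 and its second 9.42, 0.0613, 9.44 and -0.022, so high values fell in different series. It stayed past the threshold only without replicate 2 of MDA-MB-231 (0.00119), with 0.0798 to 0.14 for the other 7. ZNF92 lies among related zinc finger genes on chromosome 7, and how reads shared by such copies were assigned is not given in the sources used here.

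**Figure D4:**
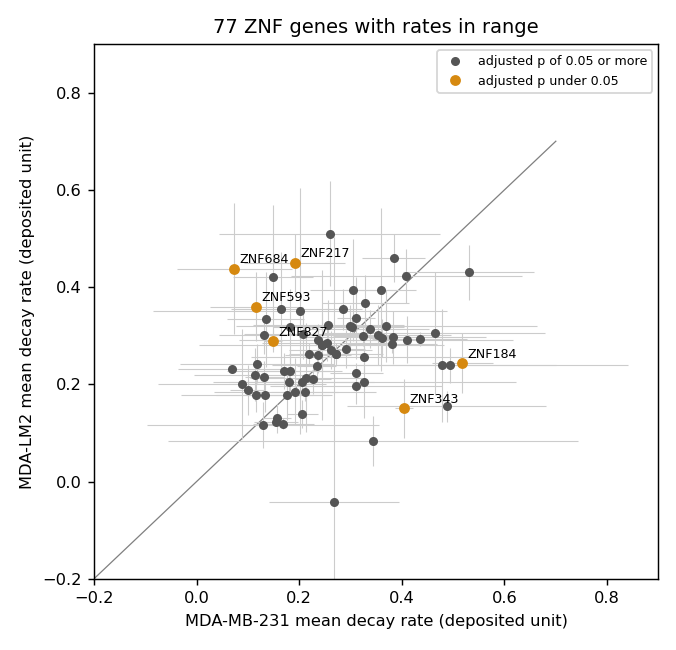
Mean decay rate in MDA-LM2 (y) against MDA-MB-231 (x), deposited unit, for the 77 members in range; grey bars are SDs over 4 series and the line marks equal rates. Orange points passed a limma adjusted p of 0.05: ZNF343 and ZNF184 lie below the line, and ZNF827, ZNF217, ZNF684 and ZNF593 above it.

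Counting members whose series did not overlap between the lines gave 18 that were lower in MDA-LM2 (14.1%) and 16 that were higher (12.5%), against 17.6% and 5.57% of all genes. In range the counts were 5 lower (6.49%) and 12 higher (15.6%), against 15.3% and 7.45% of all genes in range. The 12 were ZNF142, ZNF217, ZNF24, ZNF281, ZNF335, ZNF337, ZNF462, ZNF512, ZNF532, ZNF593, ZNF684 and ZNF827. Most of them did not pass the test as members of the whole table. ZNF281, a regulator of stemness and of the epithelial to mesenchymal switch, had 0.267, 0.517, 0.325 and 0.574 in MDA-LM2, against 0.256, 0.082, 0.16 and 0.0983 in MDA-MB-231 (adjusted p by limma = 0.0846). ZNF335, a subunit of histone methyltransferase complexes, had 0.302 ± 0.04 in MDA-LM2, against 0.131 ± 0.0872 in MDA-MB-231 (adjusted p by limma = 0.0712). ZNF532, a partner of ZNF687 and ZNF592, had 0.23, 0.234, 0.227 and 0.238 in MDA-LM2, against 0.00292, -0.034, 0.197 and 0.107 in MDA-MB-231 (adjusted p by limma = 0.0937). With each series centred on its median over all genes, ZNF142, ZNF335, ZNF462, ZNF512 and ZNF532 also passed as faster, and the member counts became 8 slower and 9 faster, against 5.13% and 3.96% of all genes under the same centring.

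The 20 measured members of the list of sequence-specific and chromatin regulators included 2 called faster in MDA-LM2 (ZNF217 and ZNF827) and 0 called slower (1 at an unadjusted p under 0.05, ZNF131, and 0 by the unequal-variance test with adjustment), and 7 of 20 had a lower mean in MDA-LM2 (35%, against 67% of all genes). In range, 5 of 18 genes of the list had a lower mean in MDA-LM2 (27.8%), against 46.8% of in-range members and 58.1% of all genes in range. The share called among the 20 was 10%, against 8.69% of all genes. The limma fit with correlated series called 1 of them. ZNF143, an activator of small nuclear RNA and many housekeeping promoters, had 0.296 ± 0.0388 in MDA-LM2, against 0.361 ± 0.0249 in MDA-MB-231, while its relative ZNF76 had 0.177 ± 0.033 in MDA-LM2, against 0.116 ± 0.147 in MDA-MB-231. ZNF410, which in human cells keeps CHD4 transcription up, had 0.271 ± 0.0395 in MDA-LM2, against 0.261 ± 0.0809 in MDA-MB-231. ZNF24 had 0.262 ± 0.0236 in MDA-LM2, against 0.219 ± 0.0178 in MDA-MB-231, and ZNF131, a BTB domain protein, had 0.223 ± 0.0218 in MDA-LM2, against 0.311 ± 0.0513 in MDA-MB-231; neither passed (adjusted p by limma = 0.239 and 0.119). ZNF148, ZNF292, ZNF592, ZNF608, ZNF609, ZNF618 and ZNF644 had line means between 0.113 (ZNF608 in MDA-MB-231) and 0.303 (ZNF618 in MDA-LM2). ZNF384 and ZNF750, a regulator of epidermal differentiation, had rates beyond 1 in some MDA-MB-231 series.

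The list of members with a role in RNA or ribosomes held 10 measured genes, of which limma called 1 faster (ZNF593) and 0 slower (1 slower at an unadjusted p under 0.05, and 0 by the unequal-variance test with adjustment). The share called was 10%, against 8.69% of all genes, and with correlated series 0 of the 10 were called. ZNF598, the ubiquitin ligase that senses collided ribosomes, had 0.232, 0.143, 0.387 and 0.178 in MDA-LM2, against 9.49, 0.531, 9.49 and 9.47 in MDA-MB-231. The lines did not overlap, but replicate 2 of MDA-MB-231 stood far below the other 3 and the gene missed the threshold (adjusted p by limma = 0.102, and 0.000705 without that series). ZNF638, which the HUSH silencing complex uses to reach unintegrated DNA, had 0.16 ± 0.0505 in MDA-LM2, against -0.384 ± 0.696 in MDA-MB-231, where replicate 2 stood at -1.43, and without that series it passed as faster (adjusted p by limma = 0.0308). ZNF346, a binder of double-stranded RNA, had 0.301 ± 0.0622 in MDA-LM2, against 0.353 ± 0.143 in MDA-MB-231. ZNF326, part of a complex of elongation and splicing, had 0.162, 0.223, 0.171 and -3.99 in MDA-LM2, against 0.104, 4.77, 0.176 and 4.86 in MDA-MB-231. ZNF830, a spliceosome protein, had 0.608, 0.397, 0.462 and 0.0904 in MDA-LM2, against 0.0726, 9.56, 0.15 and 9.45 in MDA-MB-231. Both were high in replicates 2 and 4 of MDA-MB-231. ZNF697 and ZNF800 had line means between 0.205 and 0.327. Of the 5 measured genes of the mitosis, ubiquitin and SUMO list limma called 0 (2 at an unadjusted p under 0.05, ZNF277 and ZNF598, and 0 by the unequal-variance test with adjustment). ZNF207, which guides BUB3 to kinetochores, had 0.544 ± 0.577 in MDA-LM2, against 0.292 ± 0.0416 in MDA-MB-231, ZNF451, a SUMO ligase, 0.184 ± 0.0191 in MDA-LM2, against 0.211 ± 0.0655 in MDA-MB-231, ZNF277 0.139 ± 0.029 in MDA-LM2, against 0.206 ± 0.0299 in MDA-MB-231, and ZNF330 0.284 ± 0.0353 in MDA-LM2, against 0.255 ± 0.128 in MDA-MB-231.

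Of the 26 measured co-repressor genes, 4 passed the limma test between the lines (15.4%, against 8.69% of all genes), with 1 slower and 3 faster in MDA-LM2. RBBP7, a histone chaperone of NuRD, was the slower one, at 0.0207 ± 0.0171 in MDA-LM2, against 0.12 ± 0.0096 in MDA-MB-231 (SD, n = 4; limma adjusted p = 0.00602, and 0.0418 with correlated series). ATF7IP, the partner of SETDB1, was faster, with 0.291 ± 0.0165 in MDA-LM2, against 0.175 ± 0.0219 in MDA-MB-231 (adjusted p by limma = 0.014, and 0.0513 with correlated series). MORC2, an effector of the HUSH complex, had 0.242 ± 0.00827 in MDA-LM2, against 0.124 ± 0.0399 in MDA-MB-231 (adjusted p by limma = 0.0245, and 0.145 with correlated series). UHRF1, which guides maintenance DNA methylation, had 0.276 ± 0.0179 in MDA-LM2, against 0.183 ± 0.0279 in MDA-MB-231 (adjusted p by limma = 0.0427, and 0.218 with correlated series). TRIM28 itself had 0.175 ± 0.0147 in MDA-LM2, against 0.19 ± 0.0449 in MDA-MB-231, with a limma adjusted p of 0.707.

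Rates beyond 1 were frequent among members, above all in MDA-MB-231. At least 1 such rate was seen in 51 members, in MDA-MB-231 alone for 36, in MDA-LM2 alone for 2 and in both for 13. By series they made up 4.69% to 7.03% of member values in MDA-LM2 (3.02% to 4.85% over all genes) and 18.8% to 21.1% in MDA-MB-231 (16.6% to 18.5% over all genes). In MDA-MB-231, 7 members were beyond 1 in all 4 series, 8 in 3, 19 in 1 and 15 in 2, and 11 of those 15 had them in the 2 series that share a second number. ZNF768 had the largest difference of all members, with 9.33, 9.31, 9.3 and 0.609 in MDA-LM2, against 0.0791, -8.17, -0.0826 and -0.249 in MDA-MB-231. Each of its lines held 1 series far from the other 3, and it missed the threshold (adjusted p by limma = 0.0931).

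Line means correlated across the 77 in-range members at a Spearman rho of 0.243, against 0.592 over all genes in range. Across series of 1 line with different second numbers, members correlated at 0.46 to 0.544 in MDA-LM2, against 0.158 to 0.307 in MDA-MB-231. For the same pairs all genes in range gave 0.767 to 0.782 in MDA-LM2 and 0.308 to 0.43 in MDA-MB-231. For these pairs members thus correlated less than all genes within each line, as they did between the lines. Series sharing a second number gave members 0.737 to 0.85 in MDA-LM2, against 0.886 to 0.916 for all genes in range. In MDA-MB-231 such series gave 0.596 to 0.781 for members and 0.644 to 0.787 for all genes in range, which overlap. Members of a line share its libraries, and these correlations are descriptions with no test.

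Features that the rule did not use were read from the transcripts. KRAB-like letters were found in 39 of 120 members with a transcript (32.5%), in 69.2% of chromosome 19 ZNF genes and in 1.8% of all genes. In-range members with these letters had medians of 0.262 ± 0.0223 in MDA-LM2, against 0.273 ± 0.0733 in MDA-MB-231 (18 genes), and those without had 0.262 ± 0.00564 in MDA-LM2, against 0.227 ± 0.0286 in MDA-MB-231 (58 genes). Over all rates, 30 of 39 members with the letters and 41 of 81 without them had a lower mean in MDA-LM2, beside 67% of all genes. In range the counts were 11 of 18 and 25 of 58, beside 58.1% of all genes in range. Members with 10 or more fingers gave 6 slower and 0 faster calls (44 genes). Those with fewer gave 2 and 4 (76 genes), beside 6.7% and 1.99% of all genes. In range, members with 10 or more fingers gave 2 slower and 0 faster calls (27 genes). Those with fewer gave 0 and 4 there (49 genes), beside 6.22% and 2.9% of all genes in range. ZNF23, ZNF92, ZNF605 and ZNF672, called slower and with 10 or more fingers, were not in range. The split at 10 was set with results of these data known and the contrast was not tested. Across in-range members the number of fingers correlated with the rate at a Spearman rho of 0.0163 in MDA-LM2, against 0.169 in MDA-MB-231 (76 genes), and with the line difference at -0.169.

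AU-rich elements, of which AUUUA is the core pentamer, are known to speed decay of many short-lived messages. The letters ATTTA, searched on the sense strand of the 3′ UTR with overlaps counted, occurred in 80.8% of members, 74.4% of chromosome 19 ZNF genes and 72% of all genes, with member medians of 3 copies and a 3′ UTR of 1280 bases (2 copies and 1070 bases over all genes). Copies per kb correlated with the rate at a Spearman rho of -0.281 in MDA-LM2, against -0.00615 in MDA-MB-231 (75 members). The first such site of a fast and a slow member is printed below with 10 bases on each side, from GENCODE v29 transcripts (GRCh38), the pentamer in capitals.
ZNF367: ttctgtagaaATTTAtgaagaatgt
ZNF106: ttttaaatagATTTAgacaaatgtt
ZNF367, among the fastest in range, has 11 copies in 2296 bases, and ZNF106, among the slowest, has 8 in 4481 bases, whereas ZNF687, the fastest, has 0 in 971 bases. Copies per kb varied at both ends. Among the fastest, ZNF140 has 3.36 and ZNF263 has 0, and among the slowest, ZNF117 has 3.47 and ZNF511 has 0. The share of G and C at the third position of codons correlated with the rate at 0.3 in MDA-LM2, against -0.0943 in MDA-MB-231 (76 members). Genes of a family share sequence and chromosomal neighbours, so no p is given for any of these.

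By chromosome, members were most numerous on chromosome 7 (20 genes), 1 (14), 3 (11) and 16 (11). Chromosome 7 held 2 slower and 0 faster calls, chromosome 1 held 1 and 2, and chromosome 12 held 1 and 0 with all 8 of its members lower in MDA-LM2 on average, beside 6.7% slower, 1.99% faster and 67% lower over all genes. The call on chromosome 12 was ZNF605, and ZNF84 there differed by only -0.000154. Other chromosomes went the other way, with 2 of 9 members lower on chromosome 9 and 1 of 5 on chromosome 20. The 5 members on chromosome 17 all had a rate beyond 1 in some series. Medians of in-range members ranged from 0.161 on chromosome 10 (2 genes) to 0.359 on chromosome 16 (3 genes), with few genes on each.

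The differential score in the authors' deposited table is positive where decay was slower in MDA-LM2, and it equals the sign of the rate difference times 1 minus the p of an unequal-variance comparison, within 0.001, for all 12966 transcripts. With the p-values that the score implies adjusted over all transcripts, the authors' deposited table placed 7 of 145 member transcripts past 0.05 as slower and 1 as faster, against 4.49% and 1.07% of all transcripts.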

How the data were processed

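Labelled RNA of 32 libraries was sequenced by the authors. TopHat, Cufflinks and build hg18 are listed in the submitters' processing notes; how and in which version each was used is not given in the sources used here. The authors deposited decay rates per transcript and series and a differential score per transcript, per the file headers. Of 12966 RefSeq rows in both tables, symbols came from RefSeq for 12644 and GENCODE for 118, and 204 without a symbol were left out. Rates were fitted with limma 3.58.1 in R 4.3.3 (variance trend, 4 against 4 series, no block, two-sided, Benjamini-Hochberg over 10623 genes). Nothing in the labels says that series are separate cultures, and the p-values then describe the spread among these series, which may be technical. The correlation of series sharing a second number was estimated by limma (consensus 0.46). Same-numbered series of the lines did not deviate together (r from -0.0431 to 0.000867). That cannot tell whether they were grown or processed together, and a fit with the replicate number as a block is given as an alternative. The members, lists and tests were chosen with earlier results of these data known. Features were read from GENCODE v29 with Python 3.11.15. The pattern for KRAB-like letters, named for the KRAB A box, was settled after several tries judged on known KRAB genes, when rates had been seen, and it misses some of them. The split by fingers was also chosen after seeing the data. Named were called members, the 8 fastest and 8 slowest in range, the 5 largest differences and the role lists; genes named outside these, such as those with series that do not overlap, were chosen after their values were seen. Alternatives covered the score, variance trend, centring, block, range and leaving out each series.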

Additional observations from a re-analysis of the deposited data

Results flagged for a closer look

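Each of the 55 named members gives 2 groups of 4 series, 110 in all, and in 16 of them the highest or lowest series lay far from the rest. Chance alone gives about 5.5 such groups, for independent series and members not picked by value, and neither holds here. In MDA-LM2 these were ZNF12 (-0.86 in replicate 2), ZNF207 (1.41 in replicate 4), ZNF232 (0.675 in replicate 2), ZNF326 (-3.99 in replicate 4), ZNF644 (0.284 in replicate 4), ZNF687 (0.515 in replicate 4) and ZNF768 (0.609 in replicate 4). In MDA-MB-231 they were ZNF124 (0.198 in replicate 4), ZNF217 (0.338 in replicate 4), ZNF24 (0.193 in replicate 4), ZNF330 (0.446 in replicate 3), ZNF598 (0.531 in replicate 2), ZNF605 (1.36 in replicate 2), ZNF638 (-1.43 in replicate 2), ZNF684 (0.24 in replicate 4) and ZNF768 (-8.17 in replicate 2). Their cause was not tested.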

How the results depend on the processing

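The median line difference of members was -0.0298, and 0.0136 for members in range. The median rates of members (0.273 for MDA-LM2, 0.276 for MDA-MB-231) were 0.109 and 0.0875 with centred series, and 0.26 and 0.24 for members in range, in the same order. Members called slower (8) became 3 when genes in range were fitted alone, 0 there with correlated series, 5 with the replicate number as a block (replicate block) and 0 when series sharing a second number were averaged, and 6 to 13 with 1 series left out. Members called faster (4) became 1 by the authors' deposited score and by the unequal-variance test, 0 in range with correlated series, with the replicate block and with averaged series, 2 with no variance trend, 1 with correlated series, 9 with centred series, and 1 to 3 with 1 series left out. Over all genes the 712 slower calls became 240 with the replicate block, 333 with correlated series, 1 in range with correlated series and 3 with averaged series, and 398 to 984 with 1 series left out. The 211 faster calls became 135 by the authors' deposited score, 0 in range with correlated series, 26 with the replicate block, 421 with centred series, 33 with correlated series, 0 with averaged series, 114 by the unequal-variance test, and 83 to 273 with 1 series left out. Correlated series in range and averaged series were chosen after seeing the data. The averaged fit has 2 values per line, and its 0 calls do not bear on stability. Depth is unknown.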
